A study of Mus musculus with 5 samples.

Results

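The LSM and Sm genes encode small proteins that form rings around the uridine-rich RNAs of the splicing machinery, and together with the particle-specific snRNP proteins they make up 31 mouse genes described here. The genes were taken by symbol from a table of 52143 genes measured in AOM/DSS-induced colon tumors, and 29 of them were among the 10338 genes with a TPM (a level per transcript length, relative to all RNA of the sample) of at least 1 in at least 2 samples. The set was proposed with results of the comparison of SIGLEC12 and Control tumors in view, Lsm4 having been among the leading genes of that comparison. The differences of the 31 genes between the groups are therefore given as a description, with no test.

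RNA-Seq had been performed on bulk colon tumors of female mice that were 8 weeks old at the start and were harvested on day 87. Control tumors came from 2 mice carrying a tamoxifen-inducible Cre recombinase driven by the Villin1 promoter, which is active in the intestinal epithelium. SIGLEC12 tumors came from 3 mice with the same Cre and, in addition, a conditional allele of human SIGLEC12 in the ROSA26 locus behind a CAG promoter and a stop cassette with EGFP flanked by loxP sites. SIGLEC12 encodes Siglec-XII, a receptor of the Siglec lectin family that epithelial cells carry and whose human form has lost the binding of sialic acid. Both groups received tamoxifen at 10 mg/mL for 5 days, azoxymethane (AOM, a carcinogen) at 10 mg/kg, and 4 cycles of 2.0% dextran sodium sulfate (DSS, which injures the colon epithelium) for 5 days with 14 days of recovery. The question was how epithelial Siglec-XII alters gene expression in the tumor. The series text gives 3 mice for each group, of which 2 are analysed here for Control. The knock-in was not checked by expression, because 0 symbols of the table matched human SIGLEC12.

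In the nucleus, the pre-mRNA is spliced by particles that each hold a small nuclear RNA (snRNA) and its proteins. The Sm proteins close into a ring on a uridine-rich stretch of the U1, U2, U4 and U5 snRNAs, the Sm site, with the help of the SMN complex. The related proteins Lsm2 to Lsm8 form the ring on the 3′ end of U6 snRNA, and a ring with Lsm1 in place of Lsm8 acts in the cytoplasm in mRNA decapping. Proliferating epithelium, such as that of the colon crypt and of tumors, splices large amounts of pre-mRNA, and these genes are expressed in nearly every cell type.

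The Sm site is shown in the snRNAs that were abundant in these tumors, since it is the element that the Sm ring contacts. Capitals mark the letters ATTTNTNG, searched on the RNA strand, in the GENCODE M21 transcripts of Rnu1a1, a U1 snRNA gene at GRCm38 chr11:87422867-87423030 (plus strand), and of Rnu2-10, a U2 snRNA gene at chr11:101658238-101658428 (plus strand). The match began at base 126 of Rnu1a1 and at base 99 of Rnu2-10, counted from the 5′ end.
Rnu1a1: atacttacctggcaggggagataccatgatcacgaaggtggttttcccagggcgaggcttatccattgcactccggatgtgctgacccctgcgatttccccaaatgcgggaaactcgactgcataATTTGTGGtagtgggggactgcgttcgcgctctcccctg
Rnu2-10: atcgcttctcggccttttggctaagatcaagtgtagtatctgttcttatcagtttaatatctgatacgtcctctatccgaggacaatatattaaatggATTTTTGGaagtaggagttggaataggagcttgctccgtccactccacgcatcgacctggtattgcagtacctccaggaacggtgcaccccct

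Promoters are shown for the 3 genes with the highest SIGLEC12 minus Control difference that have an entry in the RefSeq promoter table of GRCm38.p6, Lsm3, Lsm7 and Snrpe, and for the gene with the lowest, Snrnp70. Only bases before the annotated gene and outside exons of neighbouring genes are printed, which left 39 bases for Lsm3 at chr6:91515889-91515927 (plus strand), next to the divergent gene Xpc. For Lsm7 they left 65 bases at chr10:80855210-80855274 (minus strand), next to the divergent gene Sppl2b, and for Snrpe 119 bases at chr1:133610292-133610410 (minus strand). Snrnp70 is given with 200 bases at chr7:45395743-45395942 (minus strand). All are written 5′ to 3′ on the strand of the gene, and capitals mark letters that were searched on both strands. They are GGGCGG (a match to SP and KLF factors) in Lsm7, beginning 18 and 13 bases before the RefSeq start, and GCGCATGC (a match to NRF1) in Snrnp70, beginning 123, 61 and 59 bases before it, where the last pair overlap.
Lsm3: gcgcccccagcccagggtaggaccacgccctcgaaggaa
Lsm7: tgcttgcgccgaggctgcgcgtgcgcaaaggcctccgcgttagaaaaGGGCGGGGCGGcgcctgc
Snrpe: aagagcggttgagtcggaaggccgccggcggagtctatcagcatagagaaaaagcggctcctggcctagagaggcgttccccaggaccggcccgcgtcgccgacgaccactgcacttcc
Snrnp70: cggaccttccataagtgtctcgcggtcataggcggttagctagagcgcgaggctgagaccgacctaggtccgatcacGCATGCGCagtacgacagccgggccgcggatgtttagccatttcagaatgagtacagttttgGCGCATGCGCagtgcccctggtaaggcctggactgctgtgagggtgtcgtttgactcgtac

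Letters were searched on both strands of the full RefSeq windows, 250 bases before and 50 after the start, of which 28 belonged to 25 of the 31 genes. Lsm1, Lsm4, Lsm12, Snrpb, Snrpd1 and Snrnp40 had no entry. GGGCGG was found in 22 of the 28 windows (78.6%) and in 35.7% of all 32851 windows of that length. CCGGAAG, a match to ETS factors, was found in 7 (25.0%) against 8.9% of all windows, and TATAAA in 2 (7.1%) against 13.6%. CCAAT was found in 9 (32.1%, all windows 37.4%) and GCGCATGC in 4 (14.3%, all 2.7%). CACGTG was found in 2 windows, both of Snrpa (7.1%, all 7.2%), and AAGATGGC in 2, both of Lsm7 (7.1%, all 2.7%). Since some genes have more than 1 window, the shares are of windows and not of genes. These matches describe the letters of the windows and are not evidence of binding.

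The samples are named by group and replicate number. Control replicate 1 stood apart, with 7947 genes at a TPM of at least 1 where the other 4 samples had from 9532 to 10090. Its columnar epithelium markers summed to a TPM of 482 against values from 1402 to 2192 in the other 4 samples. Protein-coding genes took between 5.70% and 6.73% of all TPM in the Control samples and between 8.75% and 9.72% in the SIGLEC12 samples. The ratio of the group means was 1.46. The values as deposited thus carry a common shift, and the median SIGLEC12 minus Control difference over all 10338 genes tested was 0.38 on the log2 scale. It was 0.01 once the TPM of every sample had been rescaled to a common protein-coding total, and both scales are given below. In bulk tumors, fewer cells of a type and less RNA per cell cannot be told apart.

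The LSM and Sm genes as a set had higher values in SIGLEC12 as deposited, and lay close to the table median on either scale. Summed over the 31 genes, TPM was 113 and 124 in Control replicates 1 and 4, and 164, 188 and 211 in SIGLEC12 replicates 2, 3 and 4. The groups did not overlap, and the ratio of the means, 1.59, stood beside the ratio of 1.46 for protein-coding RNA as a whole. The median level of the 29 tested genes, in log2(TPM + 1), was 2.18 and 2.17 in Control and 2.52, 2.78 and 2.68 in SIGLEC12. After rescaling, these medians were 2.57 and 2.36 in Control and 2.39, 2.67 and 2.44 in SIGLEC12, and the groups overlapped.

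Of the 31 genes, 29 had a higher mean in SIGLEC12 and 25 had every SIGLEC12 sample above every Control sample. Of the 29 tested, 27 had a higher mean, where 87.2% of all genes tested did, and 24 lay apart, where 54.1% of all genes tested did. Apart and lower were 0 (1.67% of all genes tested). At least 2-fold higher by size were 2 of them, Lsm4 and Lsm3, where 4.68% of all genes tested were. These counts include Lsm1 and Lsm10, which reached the filter only through SIGLEC12 samples, and without that pair 25 of 27 were higher and 22 lay apart. Lsm11 and Snrnp35 did not reach the filter. The median difference of the 29 genes was 0.46 (log2) beside 0.38 over all genes tested, and 20 of the 29 lay above that median. After rescaling, the median difference was 0.07 beside 0.01, with 18 of 29 higher (51.1% of all genes tested), 7 apart and higher (15.6%) and 3 apart and lower (16.8%). The comparison chose the genes, so nothing is read from these shares.

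**Figure D1:**
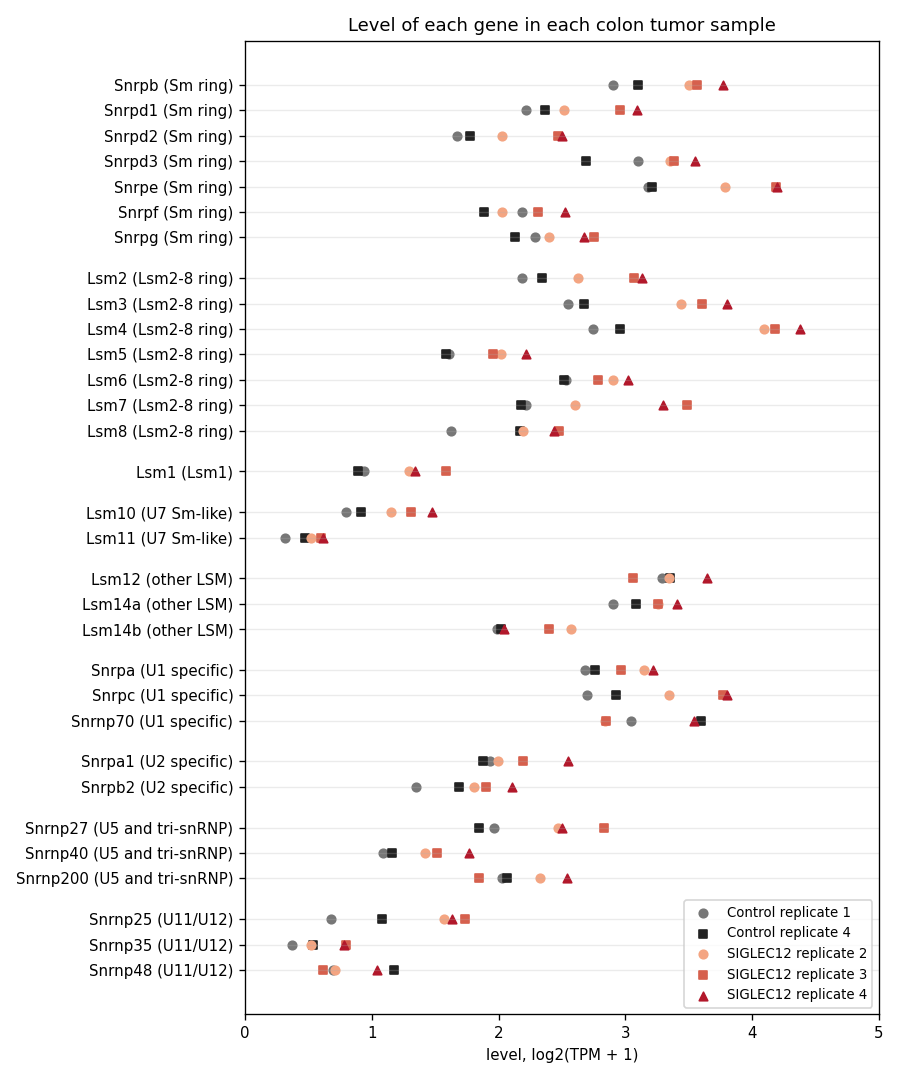
Level of each of the 31 genes, grouped by role, in log2(TPM + 1) on the horizontal axis, with 1 point per sample (2 Control in grey and black, 3 SIGLEC12 in orange and reds). Lsm4 shows the widest gap between the groups, and the groups overlap in Snrnp70, Snrnp48, Lsm12, Snrnp200, Snrpf and Snrnp35. These are values as deposited, which carry a median shift of 0.38 toward SIGLEC12, and 9 of the 29 tested genes change sign after rescaling.

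The threshold was a limma p under 0.05 after Benjamini-Hochberg adjustment together with a difference of at least 2-fold. Among all genes tested, 0 were past it in either direction (0%), and the lowest limma adjusted p of any gene was 0.0974. Before adjustment, 3543 genes (34.3%) had a limma p under 0.05. After rescaling, 0 genes passed and 1112 (10.8%) had an unadjusted p under 0.05. No gene of the set or of its partner lists below was thus past the threshold. In the sentences that follow, values are log2(TPM + 1) as deposited, in the order Control replicates 1 and 4 and SIGLEC12 replicates 2, 3 and 4. A difference is SIGLEC12 minus Control on that scale, with the SE from limma (n = 2 and 3).

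The Lsm2 to Lsm8 ring of U6 snRNA held the highest differences of the set. Lsm4 (ENSMUSG00000031848, GRCm38 chromosome 8, 70673248 to 70678752, plus strand), whose protein has a long C-terminal tail beyond its ring domain, stood at 2.74 and 2.96 in Control and at 4.09, 4.18 and 4.38 in SIGLEC12. The lowest SIGLEC12 sample was thus more than a full log2 unit above the higher Control sample. Its mean TPM was 6.23 in Control and 17.7 in SIGLEC12, and the difference was 1.37 (SE 0.20). After rescaling, the values were 3.16 and 3.17 in Control and 3.95, 4.05 and 4.10 in SIGLEC12, a difference of 0.87, and the groups stayed apart. Of all genes tested, 0.948% had a difference at least as high as deposited and 1.35% after rescaling. The difference of Lsm4 ran from 1.26 without Control replicate 1 to 1.47 without Control replicate 4. Within GENCODE M21, no stretch of 31 bases of its transcripts is shared with another gene. A second identifier with the symbol Lsm4 holds the same values and was counted once. Whether reads were split between these identifiers was not tested, so the level of Lsm4 in TPM is uncertain.

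Lsm4 was also set against the set it belongs to, which takes out any shift common to these genes. The level of Lsm4 minus the median of the 29 genes was 0.56 and 0.79 in Control and 1.58, 1.40 and 1.70 in SIGLEC12. The means were 0.67 ± 0.16 (SD, n = 2) and 1.56 ± 0.15 (SD, n = 3), and the groups did not overlap. Since Lsm4 was chosen for its difference, this is again a description.

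Lsm3 (chromosome 6, 91515928 to 91522625, plus strand), a core subunit of the Lsm rings of nucleus and cytoplasm, stood at 2.55 and 2.67 in Control and 3.44, 3.60 and 3.80 in SIGLEC12. Mean TPM was 5.11 and 11.3, with a difference of 1.002 (SE 0.20), and 0.52 after rescaling, and the groups lay apart on both scales. Lsm7 (chromosome 10, 80852821 to 80855209, minus strand), another subunit of both rings, stood at 2.22 and 2.18 in Control and 2.60, 3.48 and 3.30 in SIGLEC12. SIGLEC12 replicate 2 lay well below the other SIGLEC12 samples, and the groups overlapped after rescaling. The difference of Lsm7 was 0.93 (SE 0.29), and 0.47 after rescaling. Of its stretches of 31 bases, 16.0% are shared with the pseudogene Gm10146, so part of its level is uncertain. These genes, like Lsm4, have short transcripts, of a mean annotated length of 883 bases for Lsm3, 662 for Lsm7 and 575 for Lsm4.

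The other ring subunits differed by less. Lsm2 stood at 2.18 and 2.34 in Control and 2.63, 3.07 and 3.13 in SIGLEC12 (difference 0.68, SE 0.22; 0.22 after rescaling). Lsm5 stood at 1.61 and 1.58 in Control and 2.02, 1.95 and 2.21 in SIGLEC12 (difference 0.46, SE 0.16; 0.07 after rescaling). Both lay apart as deposited and overlapped after rescaling. Of the 31-base stretches of Lsm5, 22.1% are shared with the pseudogene Gm7846, so part of its level is uncertain. Lsm6 stood at 2.53 and 2.52 in Control and 2.90, 2.78 and 3.02 in SIGLEC12, a difference of 0.38 (SE 0.17) that turned to -0.09 after rescaling. Lsm8, the subunit that keeps the ring in the nucleus, stood at 1.62 and 2.17 in Control and 2.20, 2.48 and 2.44 in SIGLEC12. Its Control samples lay further apart than its SIGLEC12 samples, and the difference of 0.48 (SE 0.22) became 0.20 when Control replicate 1 was left out and 0.75 when Control replicate 4 was. Over the ring, all 7 genes lay apart as deposited (54.1% of all genes tested did), with a median difference of 0.68. After rescaling, 2 lay apart and higher (15.6% of all genes tested did) and 5 overlapped, with a median of 0.22.

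The subunits of a ring are present in equal numbers in the particle, but their RNA levels were not equal. In TPM, which is per transcript length, and with Lsm4 counted once, mean levels of the Lsm2 to Lsm8 genes ran from 2.03 (Lsm5) to 6.23 (Lsm4) in Control. In SIGLEC12 they ran from 3.19 (Lsm5) to 17.7 (Lsm4), with Lsm3 next at 11.3 and Lsm7 at 8.02. Lsm4 and Lsm3 did not overlap in the SIGLEC12 samples, where Lsm4 began at 4.09 and Lsm3 ended at 3.80. In Control the gap was smaller, with Lsm4 at 2.74 and 2.96 and Lsm3 at 2.55 and 2.67.

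Sm ring genes had a smaller range of differences than the Lsm ring. Snrpe (chromosome 1, 133603871 to 133610291, minus strand), the SmE subunit, stood at 3.18 and 3.21 in Control and 3.78, 4.18 and 4.20 in SIGLEC12. Its mean TPM was 8.13 and 15.8, and its difference was 0.86 (SE 0.22), the highest of the Sm ring, and 0.36 after rescaling. The groups lay apart on both scales, but narrowly after rescaling, with Control reaching 3.61 and SIGLEC12 beginning at 3.64. Of the 31-base stretches of Snrpe, 12.6% are shared with the pseudogene Snrpert, so part of its level is uncertain. Snrpb, which encodes the SmB proteins, stood at 2.90 and 3.10 in Control and 3.50, 3.57 and 3.77 in SIGLEC12. It was the other Sm gene that lay apart on both scales, with a difference of 0.61 (SE 0.20) as deposited and 0.12 after rescaling. The rescaled gap of Snrpb was narrow too, from 3.33 in Control to 3.36 in SIGLEC12.

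Snrpd1, Snrpd2 and Snrpd3 encode the SmD subunits. Snrpd1 stood at 2.21 and 2.36 in Control and 2.52, 2.96 and 3.09 in SIGLEC12 (difference 0.57, SE 0.22). Snrpd2 stood at 1.68 and 1.77 in Control and 2.03, 2.47 and 2.50 in SIGLEC12 (difference 0.61, SE 0.20). Snrpd3 stood at 3.10 and 2.69 in Control and 3.35, 3.38 and 3.55 in SIGLEC12 (difference 0.53, SE 0.21). In each, every SIGLEC12 sample lay above Control as deposited and the groups overlapped after rescaling, where the differences were 0.11, 0.19 and 0.04. For Snrpd3 the difference as deposited was 0.73 with Control replicate 1 left out and 0.33 with Control replicate 4 left out. Snrpg, the SmG gene, stood at 2.29 and 2.13 in Control and 2.40, 2.75 and 2.68 in SIGLEC12, a difference of 0.40 (SE 0.19) that was -0.05 after rescaling. The level of Snrpg is partly uncertain, because 12.6% of its 31-base stretches are shared with the pseudogene Gm8186, whose highest log2 level was 2.74. Snrpf, the SmF gene, stood at 2.18 and 1.88 in Control and 2.03, 2.31 and 2.53 in SIGLEC12, so that the groups overlapped (difference 0.25, SE 0.21; -0.18 after rescaling). Leaving out either Control sample moved it, to between 0.10 and 0.41, as did leaving out SIGLEC12 replicate 2 (0.38) or replicate 4 (0.13). The level of Snrpf is uncertain, because 92.1% of the 31-base stretches of its transcripts are shared with other annotated genes, 61.7% with Ccdc38. The highest log2 level assigned to Ccdc38 in any sample was 0.04.

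Over the Sm ring, 6 of 7 genes lay apart as deposited, beside the same 54.1% of all genes tested, with a median difference of 0.57. After rescaling, 2 stayed apart (15.6% of all genes tested were) and 5 overlapped, with a median of 0.11. The rings were also compared within each sample by their median levels. The median of the Lsm2 to Lsm8 genes minus that of the Sm genes was -0.07 and -0.02 in Control and 0.11, 0.11 and 0.04 in SIGLEC12. The groups did not overlap, and the difference of the means, 0.13, was small beside the differences of the single genes.

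Lsm1, Lsm10 and Lsm11 form rings with other roles and were low in all samples. Lsm1, of the cytoplasmic decapping ring, stood at 0.94 and 0.89 in Control and 1.29, 1.59 and 1.34 in SIGLEC12 (difference 0.50, SE 0.17; 0.20 after rescaling). Lsm10 and Lsm11 replace a pair of Sm subunits in the U7 particle, which cuts the 3′ ends of histone mRNA. Lsm10 stood at 0.79 and 0.92 in Control and 1.15, 1.31 and 1.47 in SIGLEC12 (difference 0.46, SE 0.17), and lay apart after rescaling too (0.17). Lsm11 stood at 0.32 and 0.47 in Control and 0.52, 0.60 and 0.61 in SIGLEC12, below the filter.

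Larger LSM proteins outside the rings were near or below the table median. Lsm12 (chromosome 11, 102162497 to 102185296, minus strand) stood at 3.29 and 3.35 in Control and 3.35, 3.06 and 3.64 in SIGLEC12, a difference of 0.03 (SE 0.23) that was -0.12 without SIGLEC12 replicate 4. After rescaling its difference was -0.47, and every SIGLEC12 sample lay below Control. Of the 31-base stretches of Lsm12, 14.3% are shared with the pseudogene Gm9727, so part of its level is uncertain. Lsm14a, a protein of cytoplasmic processing bodies, stood at 2.90 and 3.08 in Control and 3.26, 3.25 and 3.41 in SIGLEC12. Its SIGLEC12 samples were all higher as deposited (difference 0.32, SE 0.18) and all lower after rescaling (-0.18). Its relative Lsm14b stood at 1.98 and 2.02 in Control and 2.57, 2.40 and 2.04 in SIGLEC12, a difference of 0.34 (SE 0.20) that was -0.09 after rescaling, and 0.22 as deposited without SIGLEC12 replicate 2.

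The 3 proteins particular to the U1 particle, which recognizes the 5′ splice site, went different ways. Snrpc stood at 2.70 and 2.92 in Control and 3.34, 3.77 and 3.80 in SIGLEC12, a difference of 0.82 (SE 0.23). It lay apart after rescaling as well (0.33). The mean length of its annotated transcripts, 1949 bases, was above the median of the set, and which of them are expressed was not looked at. Snrpa, which binds a stem loop of U1 snRNA, stood at 2.68 and 2.76 in Control and 3.14, 2.96 and 3.22 in SIGLEC12 (difference 0.39, SE 0.18; -0.10 after rescaling). Of the 31-base stretches of Snrpa, 29.9% are shared with other genes.

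Snrnp70 (ENSMUSG00000063511, chromosome 7, 45376453 to 45395742, minus strand), the largest U1 protein, had the lowest difference of the set. It stood at 3.04 and 3.60 in Control and 2.84, 2.85 and 3.54 in SIGLEC12. SIGLEC12 replicate 4 lay close to Control replicate 4, and the groups overlapped. The means were 3.32 ± 0.39 (SD, n = 2) and 3.08 ± 0.40 (SD, n = 3), so the difference of -0.24 (SE 0.30) was within the spread of either group. Leaving out Control replicate 1 gave -0.52, and leaving out Control replicate 4 gave 0.03. After rescaling, the values were 3.47 and 3.82 in Control and 2.70, 2.73 and 3.28 in SIGLEC12. Every SIGLEC12 sample then lay below Control, with a difference of -0.74, and 5% of all genes tested had a difference as low. With Lsm4 counted once, Snrnp70 had the highest mean TPM of the set in Control, 9.16, followed by Lsm12 (8.99) and Snrpe (8.13). In SIGLEC12 the order was Lsm4 (17.7), Snrpe (15.8) and Snrpc (11.6), and Snrnp70 stood at 7.66. Neighbours in these orders overlapped over the samples of their group, except Lsm12 and Snrpe, which lay apart in Control.

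**Figure D2:**
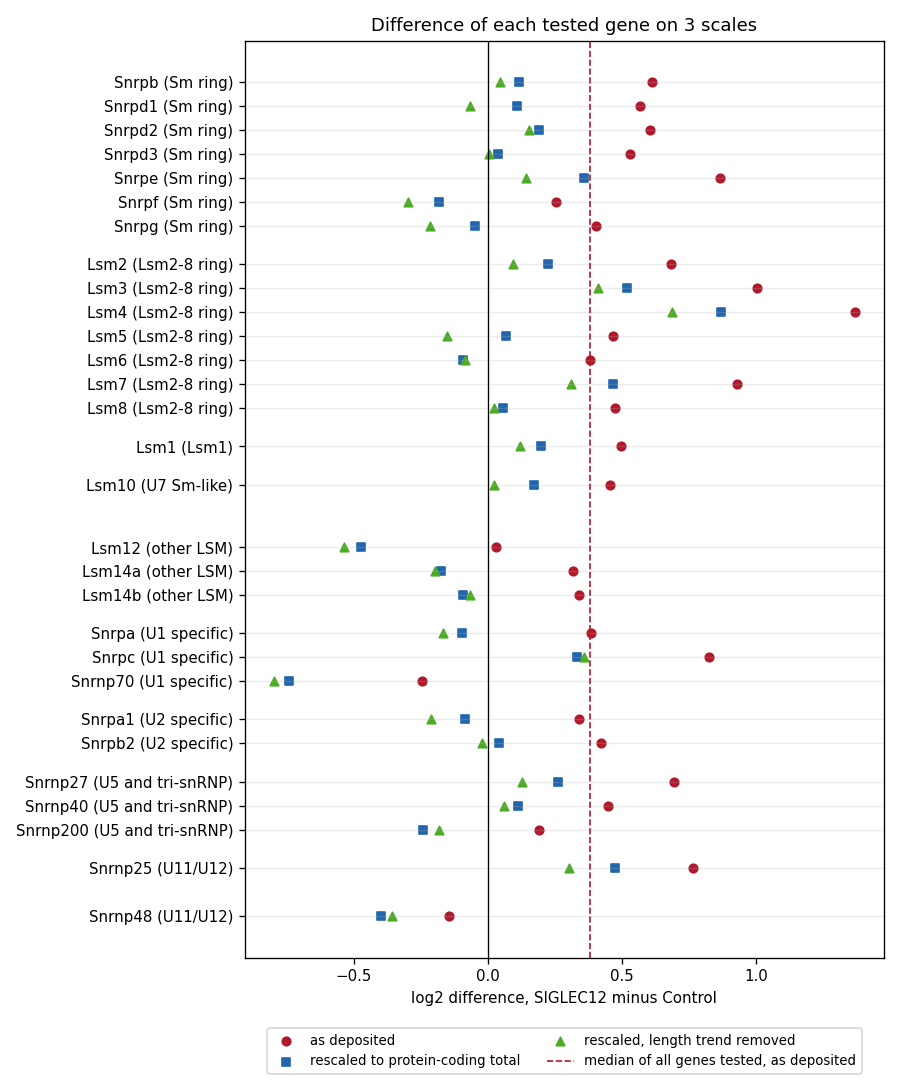
SIGLEC12 minus Control difference (log2, horizontal axis) of each of the 29 tested genes, as deposited (red circles), rescaled to the mean protein-coding total (blue squares) and with the trend on transcript length also removed (green triangles). Nearly every red circle lies right of 0, but after rescaling 18 of 29 genes do and with the length trend removed 15 do. Lsm4 lies furthest right and Snrnp70 furthest left on each of the 3 scales.

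The U2 and U5 proteins mostly lay near the table median. Snrpa1 and Snrpb2 form the pair that binds a stem loop of U2 snRNA. Snrpa1 stood at 1.93 and 1.88 in Control and 2.00, 2.19 and 2.55 in SIGLEC12 (difference 0.34, SE 0.20; -0.09 after rescaling), and 0.19 as deposited without SIGLEC12 replicate 4. Snrpb2 stood at 1.35 and 1.69 in Control and 1.80, 1.90 and 2.11 in SIGLEC12 (difference 0.42, SE 0.18; 0.04 after rescaling). Its difference ran from 0.25 (Control replicate 1 left out) to 0.59 (Control replicate 4 left out).

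Snrnp27, a protein of the U4/U6.U5 tri-snRNP, stood at 1.97 and 1.85 in Control and 2.47, 2.83 and 2.50 in SIGLEC12. It had the highest difference of the U5 and tri-snRNP genes, 0.69 (SE 0.19) as deposited and 0.26 after rescaling. Snrnp40, a WD-repeat protein of U5, stood at 1.09 and 1.16 in Control and 1.42, 1.51 and 1.77 in SIGLEC12 (difference 0.45, SE 0.17; 0.11 after rescaling). Snrnp200, the helicase that unwinds U4 from U6, stood at 2.03 and 2.06 in Control and 2.33, 1.84 and 2.54 in SIGLEC12. SIGLEC12 replicate 3 lay below both Control samples and the other SIGLEC12 samples above, with a difference of 0.19 (SE 0.23) as deposited and -0.24 after rescaling. Leaving out SIGLEC12 replicate 3 gave 0.39 as deposited, and leaving out SIGLEC12 replicate 4 gave 0.04.

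The U11/U12 proteins of the minor spliceosome, which removes a rare class of introns, diverged. Snrnp25 (chromosome 11, 32205415 to 32208984, plus strand) stood at 0.68 and 1.08 in Control and 1.57, 1.74 and 1.63 in SIGLEC12. Its mean TPM was 0.86 in Control and 2.13 in SIGLEC12. The difference was 0.77 (SE 0.18) as deposited and 0.47 after rescaling, with the groups apart on both scales, and 0.57 without Control replicate 1. Snrnp48 stood at 0.69 and 1.17 in Control and 0.71, 0.61 and 1.04 in SIGLEC12, a difference of -0.15 (SE 0.23) and -0.40 after rescaling, within overlapping groups. Without Control replicate 4 the difference of Snrnp48 as deposited was 0.09. Snrnp35, below the filter, stood at 0.37 and 0.54 in Control and 0.52, 0.80 and 0.78 in SIGLEC12.

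Transcript length went along with these differences. The median over the 29 genes of the mean annotated transcript length was 1095 bases, against 1674 for the 9222 protein-coding genes tested. Across the 29 genes, Spearman's rho between length and difference was -0.50, and across the protein-coding genes it was -0.36. These are correlations across genes of the same 5 libraries, which are not independent replicates. The protein-coding genes were put into 5 equal bins by length. In the bin with the shortest transcripts (69 to 1042 bases) the median difference was 0.60 as deposited and 0.18 after rescaling. That bin held 13 of the 29 genes, with medians of 0.68 and 0.22. In the next bin (1042 to 1449 bases) all genes had medians of 0.47 and 0.08, and the 10 genes of the set 0.46 and 0.05. The bin with the longest transcripts held 0 of them.

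Set beside genes of like transcript length, the snRNP genes of these shorter bins lay near the bin's median. The trend of level on length differed between the samples themselves. Each slope was fitted to the rescaled level of a gene minus its mean over all samples, so the slopes are relative to each other. On log2 length the slope was 0.07 in each Control sample and 0.00, -0.13 and -0.01 in SIGLEC12, steepest in SIGLEC12 replicate 3. That sample was the lowest of the SIGLEC12 samples in Lsm5, Lsm6, Lsm12, Lsm14a, Snrpa, Snrnp48 and Snrnp200, of which Lsm5 has the shortest transcripts of the set. It was the highest of them in Lsm1, Lsm7, Lsm8, Snrpg, Snrnp25, Snrnp27 and Snrnp35. With the trend removed from the rescaled values, the median difference of the 29 genes was 0.00 beside 0.00 over all genes tested, and 15 of 29 were higher (50.7% of all genes tested). Lsm4 then stood at 0.69, a difference reached by 2.37% of all genes tested, Lsm3 at 0.41, Snrpc at 0.36, Lsm7 at 0.31 and Snrnp25 at 0.30. Snrnp70 stood at -0.80 and Lsm12 at -0.54. Whether RNA quality had a part in the trend was not tested.

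**Figure D3:**
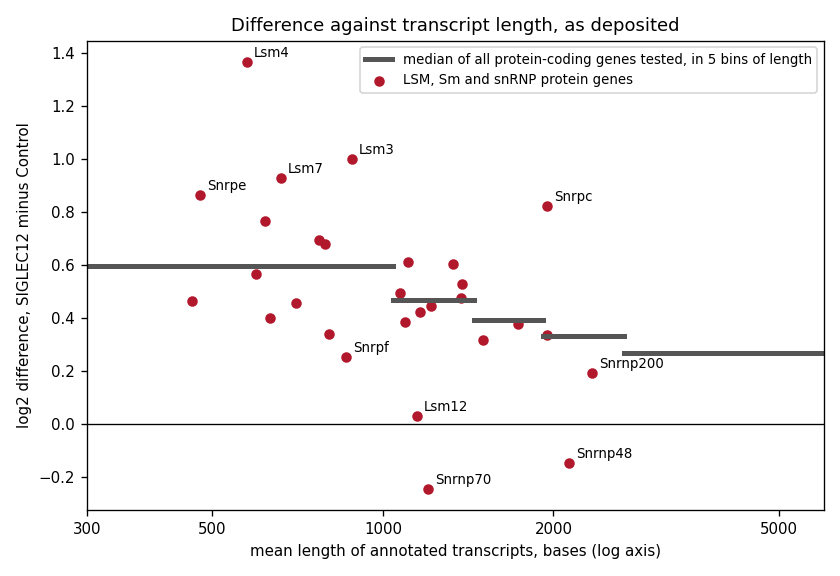
SIGLEC12 minus Control difference as deposited (log2, vertical axis) against the mean length of the annotated transcripts (bases, log axis), with 1 red point per tested gene of the set and grey bars at the median of all protein-coding genes tested in 5 bins of length. The bars step down from 0.60 to 0.27 from the shortest to the longest bin, Lsm4, Lsm3, Lsm7, Snrpe and Snrpc lie above them, and Snrnp70, Snrnp48 and Lsm12 lie below, the gap of the bars from 0 being a shift that rescaling takes down to between 0.18 and -0.10.

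Genes that act with these proteins were taken from fixed lists, which were chosen with earlier results of these data known. Their counts and p-values are therefore a description too. Over 5 protein lists with 80 genes, 65 reached the filter, and limma with Benjamini-Hochberg adjustment called 0 in either direction. At an unadjusted p under 0.05, 15 were higher (23.1%, where 33.4% of all genes tested were) and 0 lower (0.909%). Every SIGLEC12 sample lay above Control in 37 (56.9%, beside 54.1% of all genes tested). Their median difference was 0.29 as deposited and -0.10 after rescaling, below the table median on both scales.

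The assembly genes load the Sm ring onto snRNA, methylate Sm proteins or carry the particle between nucleus and cytoplasm. Of 20, 14 were tested, with a median of 0.28 as deposited and -0.10 after rescaling, and 5 had an unadjusted p under 0.05, all higher. The highest was Smn1, the SMN gene itself, at 2.21 and 2.26 in Control and 2.77, 2.66 and 3.02 in SIGLEC12 (difference 0.58, SE 0.18, limma adjusted p = 0.104; 0.13 after rescaling). The lowest was Tgs1, which forms the trimethyl cap of snRNA, with a difference of -0.05 (SE 0.17, limma adjusted p = 0.835) and -0.33 after rescaling.

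Of the other proteins of the major spliceosome, 26 of 28 were tested, with a median of 0.29 and -0.12, and 4 were higher at an unadjusted p under 0.05. Ppih, a cyclophilin of the tri-snRNP, had the highest difference (0.74, SE 0.22, limma adjusted p = 0.0988), and Sart3, which recycles U6, the lowest (-0.08, SE 0.18, limma adjusted p = 0.750). After rescaling these stood at 0.30 and -0.36. Of the 9 minor spliceosome partners, 5 were tested (median 0.36, or 0.54 without Control replicate 4, and 0.00 after rescaling), 2 of them higher at an unadjusted p under 0.05. Zmat5, a U11/U12 protein, was highest (0.70, SE 0.19, limma adjusted p = 0.0974; 0.38 after rescaling) and Zrsr2, which binds the 3′ splice site, lowest (0.04, SE 0.18, limma adjusted p = 0.885; -0.28 after rescaling).

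All 15 genes of decapping and decay, which meet the Lsm1 ring in the cytoplasm, were tested. Their median was 0.20 as deposited and -0.12 after rescaling, and 3 were higher at an unadjusted p under 0.05. The median as deposited was 0.04 with Control replicate 1 left out and 0.40 with Control replicate 4 left out. Pnrc2 was highest (0.89, SE 0.23, limma adjusted p = 0.0974; 0.39 after rescaling) and Dcp1a, a cofactor of the decapping enzyme, lowest (-0.17, SE 0.17, limma adjusted p = 0.477; -0.51 after rescaling). Of the 8 genes of U7 and histone mRNA processing, 7 were in the table and 5 were tested. As deposited, all 5 lay apart and higher, as did 54.1% of all genes tested. After rescaling, Slbp, Cpsf2, Cstf2 and Eri1 overlapped, and Cpsf3 lay apart and lower (16.8% of all genes tested did). The median of the 5 genes was 0.31 as deposited and -0.04 after rescaling, and 1 had an unadjusted limma p under 0.05. Their range was narrow, from Eri1, an exonuclease (0.26, SE 0.16, limma adjusted p = 0.261; -0.04 after rescaling), to Slbp, which binds the histone stem loop (0.43, SE 0.21, limma adjusted p = 0.182; 0.03 after rescaling).

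The snRNAs themselves, whose U1 and U2 sequences are printed above, were measured in the same table. Of 12 snRNA genes listed, 10 were in the table and 8 reached the filter, with 0 called and 3 higher at an unadjusted p under 0.05, where 33.4% of all genes tested were. The 3 were Rnu2-10 and the pair Rnu1b1 and Rnu1b2, which have the same sequence and hold the same values and so are 1 measurement. Rnu1a1 stood at 9.78 and 10.20 in Control and 10.40, 10.79 and 10.48 in SIGLEC12, above Control in every sample by a difference of 0.56 (SE 0.23, limma adjusted p = 0.146) and within 0.01 of Control after rescaling. Rnu2-10 stood at 6.86 and 6.77 in Control and 7.46, 8.02 and 7.53 in SIGLEC12 (difference 0.85, SE 0.27, limma adjusted p = 0.101; 0.30 after rescaling). Both lay apart as deposited and overlapped after rescaling. Rnu12, of the minor spliceosome, stood at 6.07 and 5.38 in Control and 5.23, 5.52 and 5.94 in SIGLEC12 and was the lowest of the list (difference -0.16, SE 0.33, limma adjusted p = 0.722; -0.70 after rescaling). Its direction turned with 1 library, to 0.18 as deposited when Control replicate 1 was left out, against -0.50 when Control replicate 4 was. Rnu5g is listed at 0 in Control replicate 4 and stood at 4.25 in Control replicate 1 and 3.55, 4.78 and 4.20 in SIGLEC12, so no fold is given. The U1 and U2 genes have near-identical copies, so reads cannot be assigned to 1 copy. Rnu6 and Rnu7, the U6 and U7 genes of the list, were at or near 0, and other annotated copies were not looked up. The levels of the RNAs bound by the Lsm2 to Lsm8 and U7 rings are thus not known from this list.

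**Figure D4:**
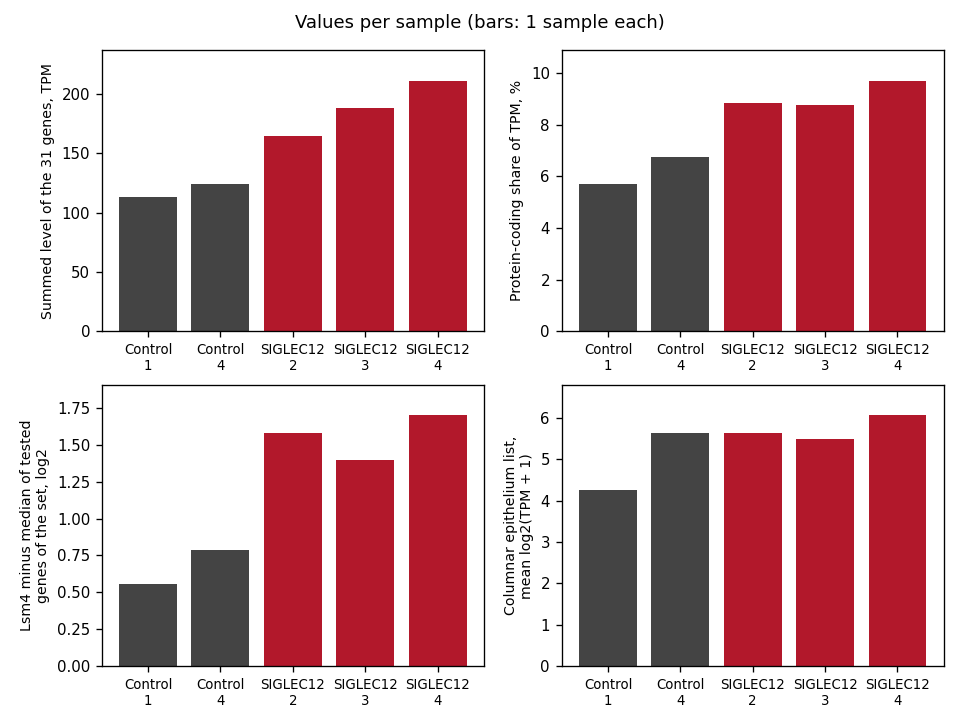
Values per sample, 1 bar per mouse with 2 Control (grey) and 3 SIGLEC12 (red) bars in each panel: summed TPM of the 31 genes, protein-coding share of all TPM (%), Lsm4 minus the median of the tested genes of the set (log2), and mean log2(TPM + 1) of columnar epithelium markers. The first 3 panels show SIGLEC12 above Control in every sample, while in the last Control replicate 1 is low at 4.25 and the other samples, between 5.48 and 6.07, overlap.

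Markers of cell types were read beside the snRNP genes. Columnar epithelium was present in all samples, with Epcam between 4.92 and 7.06. Of its 15 markers, 14 were tested, with a median difference of 1.01 (0.48 after rescaling), and at an unadjusted p under 0.05 there were 7 higher and 1 lower (33.4% and 0.909% of all genes tested). The median rested on 1 library, at 0.40 without Control replicate 1 and 1.75 without Control replicate 4. Fibroblast markers (5 of 6 tested) summed to a TPM of 8.71 and 10.5 in Control and 57.9, 18.0 and 24.4 in SIGLEC12. Smooth muscle markers (6 tested) summed to values from 45.3 to 112, with SIGLEC12 replicate 2 highest, and myeloid markers (4 of 6 tested) to values from 3.45 to 19.5. T cell, B and plasma cell and endothelial markers had 0 genes at the filter, and their low sums were higher in every SIGLEC12 sample than in both Control samples. T cell markers summed to a TPM of 0.34 and 0.50 in Control and 1.08, 1.03 and 0.59 in SIGLEC12. B and plasma cell markers summed to 0.15 and 0.30 in Control and 1.50, 0.96 and 0.74 in SIGLEC12, and endothelial markers to 0.71 and 0.79 against 4.10, 1.62 and 2.36.

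Of the 12 proliferation genes, 11 lay apart with SIGLEC12 higher, as did 54.1% of all genes tested. Their median difference was 0.60 as deposited and 0.15 after rescaling. Their mean level was 2.00 and 2.31 in Control and 2.58, 2.60 and 3.07 in SIGLEC12. The part of the marker levels in the snRNP differences was not tested. Without Control replicate 1, the sample with the lowest epithelial values, the median difference of the 29 genes was 0.48. By size, 1 gene rather than 2 was then at least 2-fold higher.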

How the data were processed

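The authors deposited 1 table of log2 values per mouse gene, log2(TPM + 1), in which the unlogged TPM sum to between 999999 and 1000001 per sample. The submitters' processing notes name kallisto 0.45.0 and GRCm38, whereas the study's methods name a human reference. The labels name a stranded total RNA kit and the methods an mRNA kit. Whether columns average technical replicate libraries is not given in the sources used here. TPM keeps no depth, so the depth is unknown. Columns not mapped to a sample numbered 0. Groups followed the labels. Each column was taken as 1 mouse, which the labels do not state, and p-values measure the spread between columns.

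The members and lists were chosen with earlier results of these data known. A repeated symbol kept the row with the highest mean. All genes with a TPM of at least 1 in at least 2 samples were fitted with limma 3.58.1 (lmFit, eBayes with trend, two-sided, Benjamini-Hochberg) in R 4.3.3, on log2(TPM + 1), where the pseudocount understates the change of low genes. The fit was tested on simulated data. Rescaling set each sample's protein-coding TPM to the mean total. The length alternative also removed each sample's linear trend on log2 transcript length. That trend was fitted to the deviation of each gene from its mean over the samples. Lengths, coordinates and shared stretches of 31 bases came from GENCODE M21, which held 98.45% of the gene identifiers. All members are named, and of each partner list the tested genes with the highest and lowest difference. Marker genes are named as examples. Alternatives were a pseudocount of 0.1, no filter, a TPM of at least 5, quantile normalization, both rescalings and leaving out each sample.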

Additional observations from a re-analysis of the deposited data

How the results depend on the processing

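No paired analysis was possible because the labels record no pairing of Control with SIGLEC12 samples. The limits are 2 and 3 mice, unknown depth, a value scale set by all RNA, and no p-values where a Control sample is left out, since 1 Control sample then remains.

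The median difference of the 29 genes, 0.46 as deposited, was 0.62 with a pseudocount of 0.1, 0.091 after quantile normalization, 0.067 after rescaling and 0.005 with the length trend also removed. In the counts that follow, shares of all genes tested are given where available, and nothing is read from counts without one. The genes with SIGLEC12 apart and higher numbered 24 as deposited (54.1% of all genes tested) and 7 after rescaling (15.6%). They numbered 13 (of 15 tested) at a TPM of at least 5, and 4 both after quantile normalization and with the length trend removed. The genes at least 2-fold higher numbered 2 as deposited (4.68% of all genes tested), 4 with a pseudocount of 0.1, and 0 under quantile normalization and both rescalings. These 3 scalings set the common shift of the table to near 0. Relative to the deposited values, 9 genes had the opposite sign after rescaling, 9 after quantile normalization and 12 with the length trend removed.

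Leaving out 1 sample gave medians from 0.44 to 0.54. It gave from 1 to 4 genes at least 2-fold higher, with 1 without Control replicate 1 or SIGLEC12 replicate 4 and 4 without SIGLEC12 replicate 2. From 24 to 25 genes lay apart, but this count cannot fall when a sample is left out and says nothing on stability. In the whole table, 0 to 1 genes were called higher, the 1 without SIGLEC12 replicate 4 being outside the set, and 0 lower. Calls in the partner lists were 0 in each fit with p-values. The signs of 2 genes (Snrnp70 and Snrnp48) turned without Control replicate 4 and of 1 (Lsm12) without SIGLEC12 replicate 4. The medians of marker lists without 1 sample, and a split of the 29 genes by transcript length, were added after seeing the data. The split gave medians of 0.57 for the 15 shorter and 0.40 for the 14 longer genes, and 0.20 and -0.03 after rescaling.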
